A study of Mus musculus with 21 samples.

Results

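The measurements are the transcript levels of 10 genes that mammalian cells switch on quickly after a stimulus or a stress, namely *Fos*, *Fosb*, *Jun*, *Junb*, *Egr1*, *Atf3*, *Ier2*, *Hspa1a*, *Hspa1b* and *Dnajb1*. They were chosen by name from the 32285 genes of the deposited table and all 10 were found there. The question was whether their levels follow the cell type, the tissue or the run. The run is a label deposited with the cells, and the sources used here do not state what it stands for. The host mice were mT/mG mice, whose cells carry the red fluorescent protein tdTomato. Fragments of unlabeled melanoma (MM) from the MT-ret line of mice were transplanted under their skin, where the primary tumors grew. Host cells were sorted as living tdTomato+ cells or tdTomato+ CD45- cells from unchallenged lung, from the tumor microenvironment (TME) of lung metastases and from the TME of primary tumors, and tdTomato- MM cells were sorted from lung metastases and primary tumors. All tissues were dissociated with enzymes in a cold room, frozen, thawed and sorted before droplet-based 3′ sequencing. The sources used here do not give the gate of each library, and the MM cells of these animals stem from a single transgenic model.

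Of 24 library names, 5 held the same cells as another name. The 19 others made up 16 libraries with 100359 cells, since the pooled samples carried several names. Each of the 5 repeated names carried another mouse number than the name kept. Among them, a name for sorted MM cells of lung metastasis held the 1036 cells of lung metastasis TME replicate 6. Unchallenged lung, lung metastasis TME and primary tumor TME had 4 libraries each, and sorted MM cells had 2 libraries from either site. Run 1 held 1 lung library and the pooled replicates 1 to 3 of either TME, run 2 held replicate 4 of each tissue and 2 MM libraries, and run 3 held replicates 5 and 6 and the other 2 MM libraries. By the names kept, lung metastasis and primary tumor libraries of replicates 5 and 6 came from the same mice. Those of run 1 shared 2 mice. Each lung library came from other mice. No mouse number occurred in more than a single run, so differences between runs and between mice cannot be told apart in any tissue. The libraries held 1777036 to 60339415 unique molecular identifiers (UMIs, each standing for 1 captured RNA molecule), and their median depth ran from 1203 UMIs per cell in primary tumor replicate 6 to 5356 in primary tumor replicate 5. Lung replicate 6 stood apart with 25966 cells at a median of 1605 UMIs. Different libraries shared at most 227 cell barcodes, 0.874% of the smaller library of that pair. Some pairs with a smaller library shared fewer barcodes at a higher percent.

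Immediate early genes are transcribed within minutes of a signal without the need for new protein, because their transcription factors wait in the cell in an inactive form. *Fos* and *Jun* family proteins pair to form AP-1, while *Egr1* and *Atf3* are further transcription factors and *Ier2* is a nuclear regulator of the same first wave. *Hspa1a* and *Hspa1b* encode the inducible HSP70 chaperones, *Dnajb1* encodes the HSP40 cochaperone that hands them unfolded proteins, and all 3 are targets of heat shock factor 1. Both groups are also known to rise in cells that are handled after removal from the body, for instance during enzymatic dissociation.

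Cells were grouped by graph clustering on genes other than these 10 and related stress genes, and clusters received the name of a cell type from marker genes. The names below therefore mean fibroblast-like, endothelial-like clusters and so on. They cover 5411 fibroblasts, 6859 endothelial cells, 3758 monocytes, 3345 C1q macrophages, 2237 neutrophils, 10527 alveolar macrophages, 8463 ciliated cells, 2097 NK cells, 1058 T cells, 819 B cells, 1512 club cells, 2151 alveolar type 2 (AT-2) cells and 50506 MM cells, and 1616 cells stayed unnamed. Lung replicate 6 supplied 9537 of the alveolar macrophages and 7591 of the ciliated cells. Primary tumor replicates 5 and 6 held 0 monocytes, T cells, NK cells and B cells, and 3 and 0 C1q macrophages. The tests below in monocytes and C1q macrophages thus had no primary tumor library of run 3. Of the unnamed cells, 722 and 310 came from lung metastasis replicates 5 and 6, which held 434 and 53 cells named fibroblasts. Most unnamed cells, 1585, were in a cluster led by *Col2a1*, *Ccn2* and *Col27a1* that raised too few markers of any type. The unnamed cells are in none of the fibroblast values below. No cluster was named for mural cells (pericytes and smooth muscle). *Rgs5* and *Ndufa4l2*, both on the mural marker list, were among the leading genes of clusters named fibroblasts. The fibroblast values can therefore include mural cells. UMIs were summed per library and cell type wherever a library held at least 20 such cells. Host cell types were summed in the lung and TME libraries only, and MM cells in the sorted MM libraries only. MM cells of the TME libraries, such as 2143 in lung metastasis replicate 5, were thus left out, as were host cells of the MM libraries. This gave 84 sums of 63755 to 60187800 UMIs (median 763466). Levels are given as CPM, the UMIs of a gene per 1000000 UMIs of that sum.

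The promoters of *Fos* and *Jun*, the founding partners of AP-1, are shown because the account of the cell types opens with *Fos* and that of the tissues with *Jun*. The bases are the 250 before the RefSeq start on GRCm38, at chr12:85473640-85473889 on the plus strand for *Fos* and at chr4:95052223-95052472 on the minus strand for *Jun*. In *Fos* the capitals mark the 2 matches to TGACG, the core of the cyclic AMP response element, and in *Jun* the match to TGACNTCA, an element of the AP-1 kind.
Fos: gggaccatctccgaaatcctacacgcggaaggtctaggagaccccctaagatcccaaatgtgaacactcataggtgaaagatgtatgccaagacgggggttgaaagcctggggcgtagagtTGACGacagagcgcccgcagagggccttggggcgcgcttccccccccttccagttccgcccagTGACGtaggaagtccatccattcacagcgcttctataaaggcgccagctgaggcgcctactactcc
Jun: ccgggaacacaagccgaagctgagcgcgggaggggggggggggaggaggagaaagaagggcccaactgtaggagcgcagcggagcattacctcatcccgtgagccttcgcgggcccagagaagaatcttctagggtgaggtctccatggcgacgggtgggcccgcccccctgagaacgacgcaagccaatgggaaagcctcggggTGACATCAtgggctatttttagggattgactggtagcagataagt
Searched on both strands, TGACG was present in 17.8% and TGACNTCA in 7.49% of 32851 RefSeq promoters of this length. The *Fos* promoter also held TATAAA, 33 bases before the start, which 12.4% of promoters hold. These matches describe the letters only. *Jun* lies on chromosome 4 from 95049034 to 95052222 and overlaps *Junos* on the opposite strand, and *Fos* lies on chromosome 12 from 85473890 to 85477273.

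*Fos* was highest in neutrophils, with a lowest, median and highest level of 1492, 2416 and 7714 CPM over 9 libraries. Monocytes followed with 959.8, 1639.8 and 2494 CPM over 10 libraries, and endothelial cells (13.1, 65.8 and 200.0 CPM, 12 libraries) and sorted MM cells (38.7, 63.8 and 91.6 CPM, 4 libraries) were at the other end. The ranges of neutrophils and endothelial cells did not overlap. Within a library, the neutrophil level was higher than the endothelial one in 9 of 9 libraries, by a median ratio of 36.4 (20.3 to 172), and the monocyte level in 10 of 10, by 27.6 (7.07 to 68.3). Ratios use CPM plus 1. Neutrophils were above monocytes in 8 of 9 libraries, but this neighboring pair did not pass after adjustment (exact sign-flip test, two-sided, adjusted p = 0.164).

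*Fosb*, the close relative of *Fos* in AP-1, had another order. Its median was highest in B cells (1016 CPM, 782 to 1231, 4 libraries), T cells (819 CPM, 743 to 1161, 5 libraries), neutrophils (818 CPM, 298 to 1538) and NK cells (792 CPM, 559 to 1290.0, 5 libraries). These 4 ranges overlapped. The libraries behind the B cell median included none of run 1. Neutrophils were above B cells in 3 of the 3 libraries that held both, by a ratio of 1.31 to 1.67. B cells were above T cells in 3 of 4 libraries and above NK cells in 3 of 4. *Fosb* lies on chromosome 7 from 19302696 to 19310051 (GRCm38, minus strand). Endothelial cells held a median of 52.9 CPM and MM cells 14.99 CPM, with a highest MM value of 32.3 CPM.

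*Jun*, which can pair with either *Fos* protein or with itself, was highest in neutrophils (713, 2072 and 2893 CPM) and monocytes (933, 1571 and 2345 CPM). Endothelial cells came next, from 172 to 1483 CPM around a median of 806 CPM, and this range is taken up again under the tissues. MM cells had 56.2 to 104 CPM, below the lowest value of each other cell type.

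*Junb*, the *Jun* protein that restrains AP-1 in many settings, had a median of 3132 CPM in neutrophils (1459 to 4750.1). All other cell types had medians of 1135 CPM or less, with 936 CPM in monocytes (521 to 1266) and 35.4 CPM in MM cells (24.1 to 45.9). The neutrophil level exceeded the monocyte level of the same library in 9 of 9 libraries by a ratio of 2.72 to 4.07 (median 3.46). *Junb*, on chromosome 8 from 84974484 to 84978718, overlaps *Prdx2* on the opposite strand.

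*Egr1*, a zinc finger transcription factor, was also highest in neutrophils (330.1, 603 and 1924 CPM), and fibroblasts came next with 178, 287 and 767 CPM over 8 libraries. Endothelial cells had a median of 49.6 CPM and MM cells 5.30 CPM. Fibroblasts exceeded the endothelial cells of their own library in 8 of 8 libraries by a median ratio of 4.89 (2.79 to 7.82). *Ier2* had its highest median in neutrophils (741 CPM, 398 to 1014), above the monocytes of the same library in 9 of 9 libraries by a median ratio of 1.61 (1.04 to 2.13, adjusted p = 0.164, exact sign-flip test). Monocytes (486 CPM) and NK cells (479 CPM) lay close together, and MM cells were lowest at 58.7 CPM. *Ier2* lies on chromosome 8 from 84661331 to 84662852.

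*Atf3*, a stress-response transcription factor of the ATF/CREB family, was highest in the 4 types of myeloid cells. Its medians were 340.2 CPM in neutrophils (78.4 to 856), 274 CPM in monocytes (121 to 629), 158 CPM in C1q macrophages (59.7 to 793) and 84.9 CPM in alveolar macrophages (28.9 to 132). In all other cell types the median was 43.2 CPM or less, down to 7.33 CPM in T cells. The gene lies on chromosome 1 from 191170296 to 191218039. Monocytes exceeded endothelial cells in 10 of 10 libraries by a median ratio of 18.1 (11.3 to 85.2) and T cells in 5 of 5. In the T cells of the pooled lung metastasis library of run 1, 28 cells gave 0 UMIs, which allows up to 46.3 CPM at 3 counts. This bound covers counting error only.

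The chaperone genes had a different order of cell types from the *Fos* and *Jun* genes. *Hspa1a* was highest in monocytes (212, 456 and 1051 CPM) and in C1q macrophages (52.9, 253 and 843 CPM), while neutrophils, the leading cells for *Fos*, held a median of 28.9 CPM. Monocytes exceeded neutrophils in 9 of 9 libraries, with a median ratio of 16.1, and exceeded endothelial cells in 10 of 10 by a median of 21.4 (5.77 to 31.6). Monocytes were above C1q macrophages in 8 of 10 libraries (adjusted p = 0.205, exact sign-flip test). *Hspa1b* was likewise highest in monocytes (147, 371 and 1201 CPM), and T cells, B cells, NK cells, C1q macrophages and alveolar macrophages had medians between 232 and 298 CPM. Neither gene was detected in the 33 neutrophils of the primary tumor library of run 1, which allows up to 39.8 CPM, and *Hspa1a* was at 0 in the 32 NK cells of the lung metastasis library of run 1, which allows up to 37.9 CPM.

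*Hspa1a* and *Hspa1b* are near-identical neighbors on chromosome 17, 9952 bases apart, and the promoters are shown because the question of whether the counting can separate them bears on every value of both. They are given from GRCm38 RefSeq starts at chr17:34972157-34972406 and chr17:34959239-34959488, both on the minus strand, with the match to GAANNTTC, a pair of facing heat shock factor units, in capitals.
Hspa1a: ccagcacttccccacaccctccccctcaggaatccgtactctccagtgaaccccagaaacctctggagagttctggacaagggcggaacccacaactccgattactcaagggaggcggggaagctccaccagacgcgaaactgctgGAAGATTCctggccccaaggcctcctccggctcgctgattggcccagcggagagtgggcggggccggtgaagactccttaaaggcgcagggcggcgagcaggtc
Hspa1b: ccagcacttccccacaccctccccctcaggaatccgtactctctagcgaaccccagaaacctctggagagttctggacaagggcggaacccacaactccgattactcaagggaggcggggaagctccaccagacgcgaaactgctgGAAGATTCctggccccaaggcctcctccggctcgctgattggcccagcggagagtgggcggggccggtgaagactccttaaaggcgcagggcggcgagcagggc
The promoters differ at 3 of 250 positions, and the match begins 104 bases before the start in both. It was present in at most 12.8% of all promoters, and the *Jun* promoter held it as well, 128 bases before the start. Of all 50-base windows of the *Hspa1a* transcript 58.8% occur in *Hspa1b*, and 62.3% in the other direction, but 0 of those in the last 300 bases, which a 3′ library reads. The split of reads between both genes is therefore least certain for reads from further upstream. *Hspa1a* also overlaps *Gm20481* on the opposite strand.

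*Dnajb1*, on chromosome 8 from 83608193 to 83612653, had the narrowest range of medians among the chaperone genes. NK cells (156 CPM, 25.2 to 306), T cells (145 CPM, 72.9 to 232) and B cells (113 CPM, 98.1 to 142) had the highest medians, and fibroblasts, endothelial cells and MM cells the lowest, at 28.5, 28.6 and 25.1 CPM. Monocytes (75.1 CPM) exceeded endothelial cells in 10 of 10 libraries by a median ratio of 2.39 (1.18 to 3.61).

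**Figure D1:**
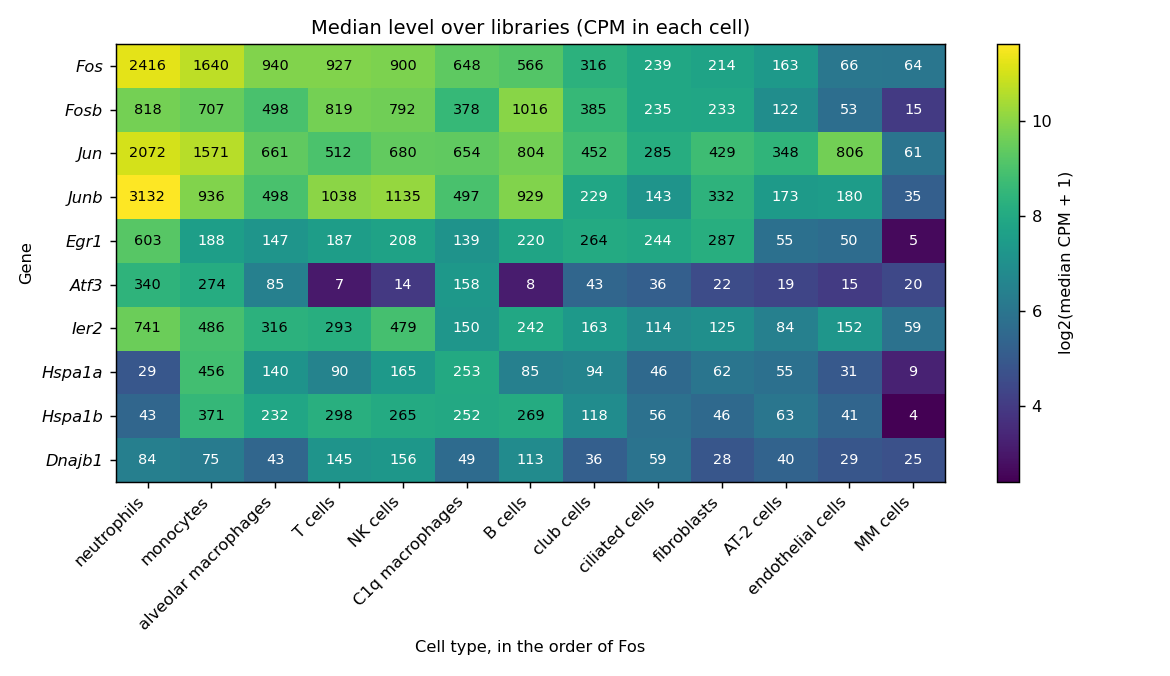
Heat map of the median level in CPM (log color scale, numbers printed in the cells) of the 10 genes (rows) in 13 cell types (columns). Medians were taken over lung and TME libraries with at least 20 cells of that type, and for MM cells over the sorted MM libraries. By these medians, neutrophils led for *Fos*, *Jun*, *Junb*, *Egr1*, *Atf3* and *Ier2* and monocytes for *Hspa1a* and *Hspa1b*. B cells led for *Fosb* and NK cells for *Dnajb1*.

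Of the 120 pairs of neighboring cell types in these orders, 42 shared at least 5 libraries and were compared inside libraries by the exact sign-flip test. With 5 shared libraries, as in 26 of them, this exact test cannot go below p = 0.0625, and with 9 not below 0.00391, so those 26 could not pass and 8 of the 42 lay at their smallest possible p, *Ier2* between neutrophils and monocytes among them. None passed after Benjamini-Hochberg adjustment over the 42, and 4 had an unadjusted p below 0.05, all of them named above except *Jun*, which was higher in monocytes than in endothelial cells in 9 of 10 libraries (adjusted p = 0.164). The other 78 pairs shared too few libraries and were not compared. The highest cell type was the same for 9 of 10 genes when cell types were taken from marker genes without clusters, where *Hspa1b* was highest in B cells, and for 10 of 10 when cells were thinned to 1000 UMIs. It was the same for 9 of 10 with an approximate neighbor search, where *Fosb* was highest in T cells, and for 9 of 10 without the 2 libraries of lowest depth, where *Hspa1b* was highest in NK cells.

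**Figure D2:**
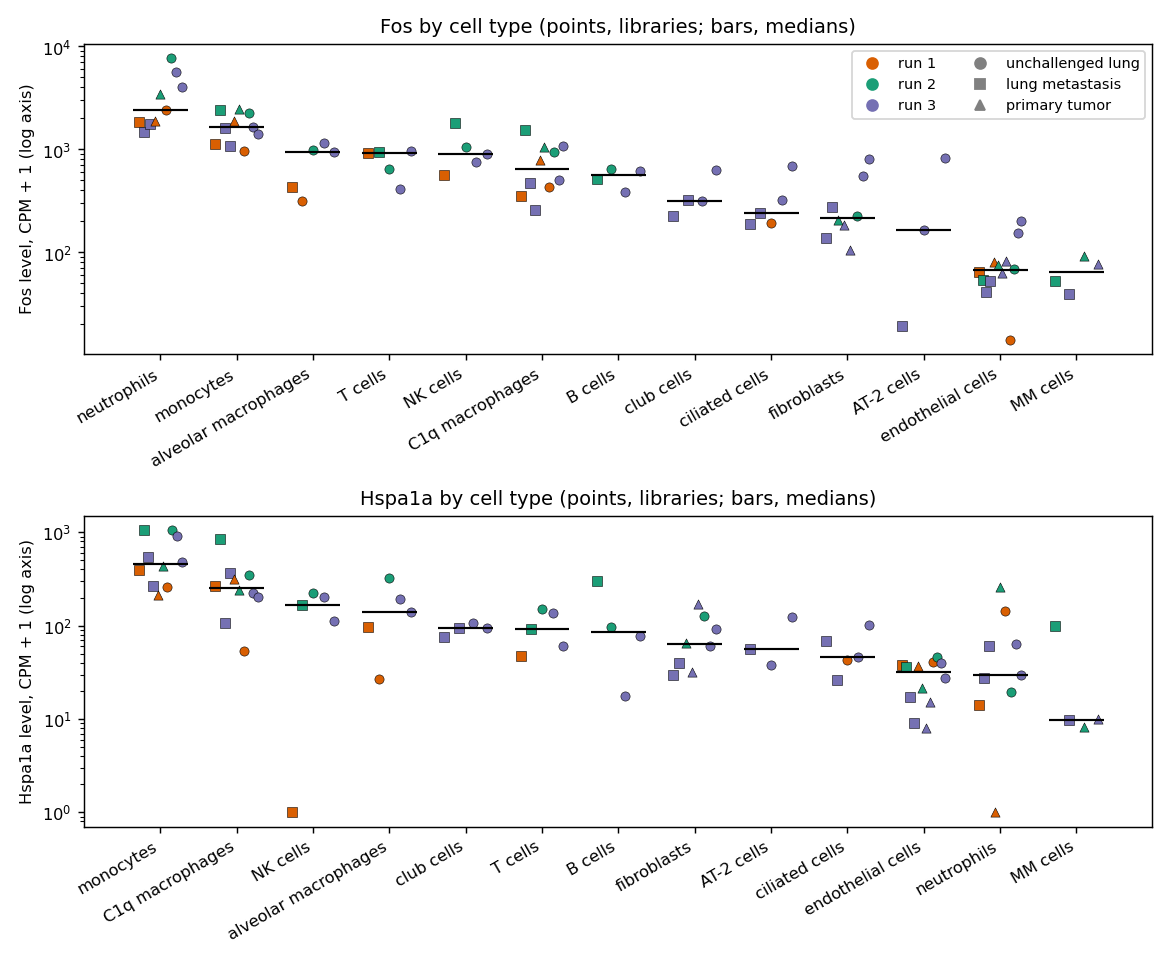
Levels of *Fos* and *Hspa1a* (log axis, CPM plus 1) in each library by cell type, with points colored by run. *Fos* ran from 13.1 CPM in endothelial cells to 7714 CPM in neutrophils, and for *Hspa1a* the monocytes were highest while most neutrophil values lay near those of endothelial cells.

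The share of the spread that goes with cell type, tissue and run was computed for 11783 genes over 80 sums of 12 host libraries and 12 cell types, as the sum of squares lost when a term is dropped. Cell type took a median of 60.9% for the 10 genes, against 50.4% for all genes. Tissue took 1.90% against 3.00%, and run 5.01% against 2.13%. Cell type had the largest share for 10 of 10 genes, as it did for 98.4% of all genes, and run took more than tissue for 10 of 10, against 42.0% of all genes. Run and tissue were close for *Hspa1b* (2.49% and 2.40%), *Fos* (2.34% and 2.09%) and *Atf3* (2.33% and 1.94%). In a fit with library as a term, library took a median of 15.9% for the 10 genes, against 13.1% for all genes. These shares are descriptions without a test.

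Among the genes, the cell type share was largest for *Atf3* at 82.5%, followed by *Fos* at 77.0%, *Ier2* at 76.3% and *Junb* at 75.8%. It was smallest for the chaperone genes, with 50.3% for *Hspa1a*, 44.8% for *Hspa1b* and 43.7% for *Dnajb1*. The run share was largest for *Hspa1a* at 10.2%, *Dnajb1* at 9.50%, *Fosb* at 7.99% and *Jun* at 7.59%, and the tissue share did not exceed 5.02%, the value of *Egr1*. The other immediate early genes had median shares of 63.9% for cell type, 6.29% for tissue and 2.09% for run, and the other heat shock genes 56.5%, 1.89% and 1.59%, and the differences of these lists from the 10 genes were not tested.

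**Figure D3:**
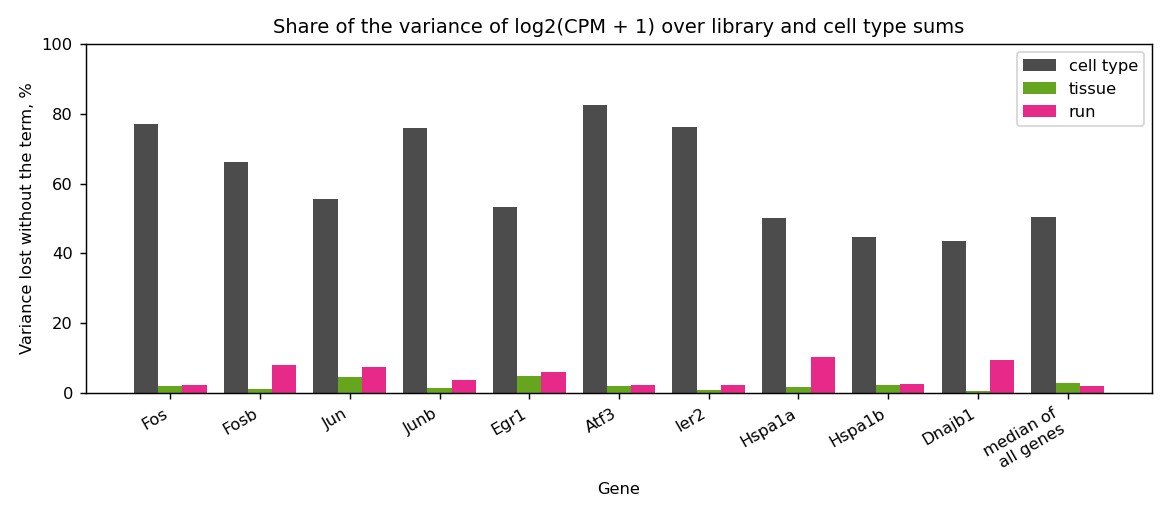
Percent of the spread of log2(CPM + 1) that goes with cell type, tissue and run for each of the 10 genes, beside the median of all 11783 genes. Cell type had the largest share for each gene, 43.7% to 82.5%, and run exceeded tissue for each, with the largest run share at 10.2% for *Hspa1a*.

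In the model behind these shares, fitted over all cell types, the run 2 libraries lay above those of run 1 by a median of 0.84 on the log2 scale for the 10 genes, against 0.17 for all genes, and the run 3 libraries above those of run 1 by 0.63, against 0.26. The largest value was 1.83 for *Hspa1a* between runs 2 and 1, followed by 1.29 for *Fosb*. *Hspa1a* had 0 UMIs in 2 sums of run 1, which enter this scale at 0, namely NK cells of lung metastasis and neutrophils of primary tumor, where 3 counts would be 37.9 and 39.8 CPM. Within cell types edgeR gave *Hspa1a* values of 1.43 in monocytes, 1.03 in C1q macrophages and −0.04 in endothelial cells between these runs, none of them called. All 10 genes were above 0 in both contrasts. The direction is that of the fitted terms over cells of the same libraries, so the 12 cell types are not independent of each other.

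Run and tissue were then tested within cell types by edgeR's quasi-likelihood F test with both as terms, over all genes that passed the count filter, with Benjamini-Hochberg adjustment over all genes tested. The fits were limited to fibroblasts and the 3 other host cell types with the most libraries. These were fibroblasts (8 libraries, runs 2 and 3), endothelial cells (12 libraries), monocytes (10 libraries) and C1q macrophages (10 libraries). All 10 genes were tested in each. Neutrophils, with 9 libraries, were thus not fitted. The threshold for a call was an adjusted p of 0.05. In simulated data with known changes, 4-fold changes (log2 of 2) were found for 16.8% of changed genes in fibroblasts, 97% in endothelial cells, 100% in monocytes and 89.2% in C1q macrophages, and 2-fold changes (log2 of 1) for 1%, 53%, 69.7% and 26.6%. Missing calls in fibroblasts therefore say little.

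In monocytes 2 of 10 genes differed by run, *Fosb* (adjusted p = 0.0172) and *Atf3* (adjusted p = 0.0464, both edgeR), where 1.44% of all genes were called. *Fosb* had 321 CPM in lung, 335 in lung metastasis and 331 in primary tumor in run 1. In run 2 it had 695, 780.5 and 623 CPM in the same order of tissues. Run 3 held 895 and 783 CPM in lung replicates 5 and 6 and 719 and 745 CPM in lung metastasis replicates 5 and 6. All 3 libraries of run 1 were below all 7 others. The fitted difference of run 3 from run 1 was 1.10 on the log2 scale (SE 0.22, adjusted p = 0.0185, edgeR), in a contrast where 0.942% of all genes were called higher, and that of run 2 from run 1 was 1.05 (SE 0.21, adjusted p = 0.0697).

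The *Fosb* order by run was also seen inside both monocyte clusters, given as values without a test. In the cluster led by *Ms4a4c*, *Plac8* and *Ly6c2*, marks of classical monocytes, run 1 held 316 to 518 CPM and the other runs 562 to 974 CPM. In the cluster led by *Cd300e*, *Treml4* and *Adgre4*, marks of patrolling monocytes, run 1 held 209.9 to 470.4 CPM and the other runs 627 to 954 CPM. The call between runs 3 and 1 was lost without any of the run 1 libraries (adjusted p = 0.289 without lung, 0.0773 without lung metastasis and 0.0570 without primary tumor), without lung replicate 5 (0.104) or primary tumor replicate 4 (0.0570), and with cell types from marker genes without clusters (log2 difference 0.64, adjusted p = 0.398).

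*Atf3* in monocytes had 172, 121 and 259.6 CPM in lung, lung metastasis and primary tumor of run 1. It had 313, 344 and 629 CPM in run 2, and 288, 214, 346 and 209 CPM in lung replicates 5 and 6 and lung metastasis replicates 5 and 6 of run 3. Run 1 and run 3 overlapped, and within each tissue the run 1 library was the lowest. The fitted difference between runs 2 and 1 was 1.16 (SE 0.24, adjusted p = 0.0794), so no single contrast passed. The *Atf3* call was lost with types from markers (adjusted p = 0.389), with run as the only term (0.358), without the 2 libraries of lowest depth (0.0661), and on leaving out any library but lung metastasis replicate 5 (0.0616 to 0.212). The share of mitochondrial UMIs of these monocytes was 1.55 to 2.05% in run 1, 1.64 to 2.27% in run 2 and 1.75 to 4.89% in run 3. The 7 C1q macrophage markers, of which 2 to 7 were above 0 in a library, summed to 1407 to 2401 CPM in monocytes of run 1, 3537 to 6785 CPM in run 2 and 1549 to 3375 CPM in run 3, and the part of either measure in the differences was not tested.

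The other 8 genes were not called by run in monocytes, yet all 10 fitted values were above 0 between runs 2 and 1 (0.51 to 1.51, median 1.02, against −0.02 for all genes) and between runs 3 and 1 (0.17 to 1.25, median 0.50, against −0.01). Of all genes 48.0% and 48.9% were above 0. At an unadjusted p below 0.05 were 8 of the 10 genes and 14.4% of all genes, and DESeq2 called 4 of the 10, where it called 2.63% of all genes. Both contrasts share the run 1 libraries. *Hspa1a* had 261, 394 and 212 CPM in run 1, 1051, 1049 and 433 CPM in run 2 and 905, 479, 539 and 268 CPM in run 3, and it missed the threshold (adjusted p = 0.0639). *Jun* (0.0629) and *Egr1* (0.0796) missed it as well.

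In C1q macrophages none of the 10 genes was called by run by edgeR or DESeq2, where edgeR called 0.119% of all genes. The smallest adjusted p was 0.810. At an unadjusted p below 0.05 were 6 of 10 genes, against 4.67% of all genes. All 10 fitted values were above 0 between runs 2 and 1, with a median of 0.99 (0.05 to 1.205), against 47.9% of all genes, and 8 of 10 between runs 3 and 1, with a median of 0.22, against 50.5% of all genes with a median of 0.0048. Replicate 4 of the lung metastasis TME, with 26 cells, carried the highest values of run 2 for *Fos* (1553 CPM), *Jun* (2079 CPM) and *Hspa1a* (843 CPM).

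In endothelial cells no gene was called by run by edgeR or DESeq2, where edgeR called 0.395% of all genes, and 2 were at an unadjusted p below 0.05, against 7.92% of all genes, *Hspa1a* (adjusted p = 0.527, fitted at −0.85 between runs 3 and 1) and *Fosb* (adjusted p = 0.556, fitted at 2.34). Of the fitted values 7 of 10 were above 0 between runs 2 and 1 (median 0.16, 50.7% of all genes above 0) and 6 of 10 between runs 3 and 1 (median 0.24, 54.6% of all genes). *Fosb* had 8.04 CPM in lung and 7.99 CPM in primary tumor of run 1, below the 34.3 to 208 CPM of the libraries of runs 2 and 3, whereas the lung metastasis library of run 1 had 73.8 CPM. In fibroblasts, which had no library of run 1 with enough cells, edgeR called no gene by run, 0% of all genes, DESeq2 called none of the 10, and *Hspa1b* alone had an unadjusted p below 0.05 (adjusted p = 1), against 4.55% of all genes.

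**Figure D4:**
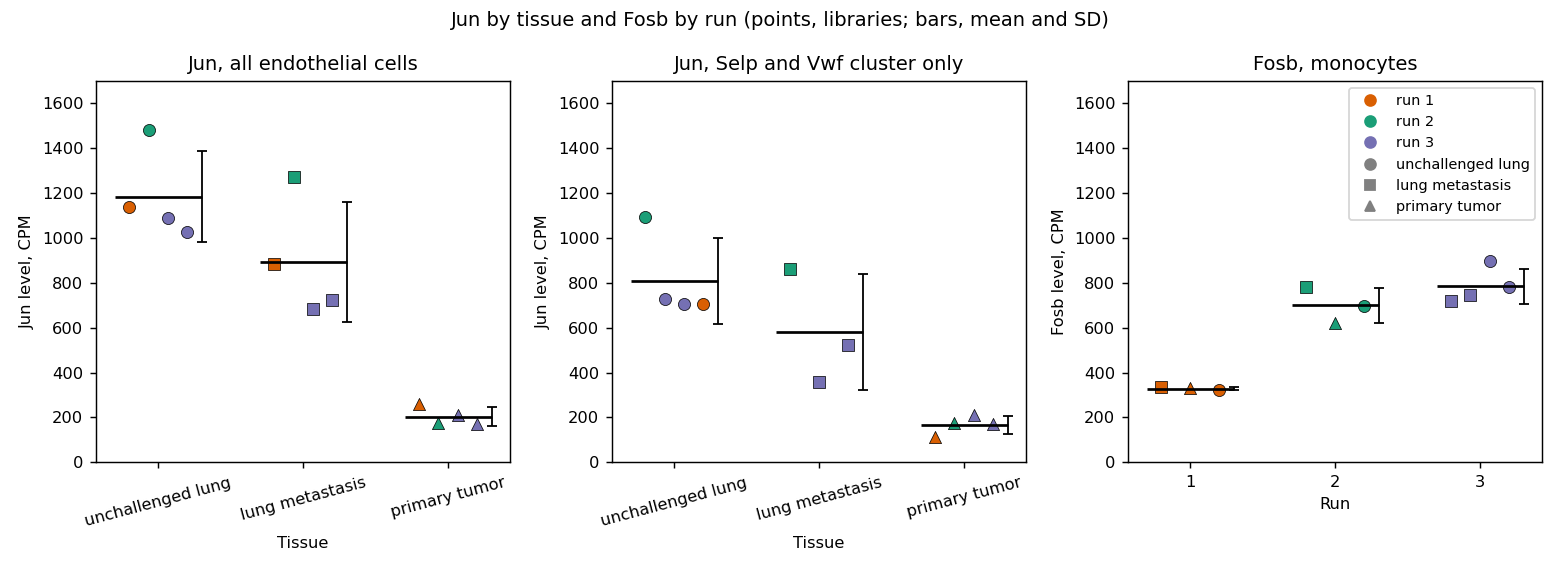
Left and middle, *Jun* in CPM by tissue in all endothelial cells and in the endothelial cluster led by *Selp* and *Vwf*. Right, *Fosb* in monocytes by run, where points are libraries and bars are means with SD. In all endothelial cells *Jun* was 172 to 259.7 CPM in primary tumor and at least 684 CPM in every other library, in the cluster it was 115 to 210.0 CPM in primary tumor and at least 359 CPM in the others, and *Fosb* was at most 335 CPM in run 1 and at least 623 CPM in the other runs.

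The tissue comparison asks whether host cells of the same type carry different levels of these genes in unchallenged lung, around lung metastases and in primary tumors. The primary tumors grew under the skin, and no unchallenged skin was sampled. In contrasts of primary tumor with lung or lung metastasis, organ and tumor therefore cannot be told apart. By the paper's methods, primary tumors were surgically removed and the mice were then monitored for metastases. Lung metastasis thus also differed from primary tumor in earlier surgery and time of collection, and these cannot be told apart from the tissue either. In endothelial cells 2 of 10 genes differed by tissue, *Jun* (adjusted p = 3.21e-05) and *Hspa1b* (adjusted p = 0.0369, both edgeR), where 23.5% of all genes were called. Without the lung library of run 1 the count was 6, where 24.5% of all genes were called, with *Fos*, *Fosb*, *Egr1* and *Hspa1a* added. With the replicate block, which leaves that library out as well since it carries no matching number, it was the same 6 (23.0%). In the cluster led by *Selp* and *Vwf* alone it was 5 (18.2%), and it was 1, *Jun*, without any of lung or primary tumor replicates 4, 5 and 6 or lung metastasis replicate 6, with tissue as the only term and without the 2 libraries of lowest depth. *Jun* had 1137, 1483, 1090.1 and 1027 CPM in the 4 lung libraries (run 1 and replicates 4, 5 and 6). It had 885, 1271, 684 and 726 CPM in the 4 lung metastasis libraries and 259.7, 174, 210.0 and 172 CPM in the 4 primary tumor libraries. Every primary tumor value was below every other value, while lung and lung metastasis overlapped. The means were 1184 ± 204 CPM in lung, 892 ± 268 CPM in lung metastasis and 204 ± 41.0 CPM in primary tumor (SD, n = 4 each).

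*Jun* was lower in primary tumor than in lung by a log2 difference of −2.43 (SE 0.23, adjusted p = 1.18e-05, edgeR), where 13.4% of all genes were called lower, and lower than in lung metastasis by −2.03 (SE 0.23, adjusted p = 0.000191, edgeR), where 6.39% were. Lung metastasis and lung differed by −0.41 (SE 0.22, adjusted p = 0.379). Each call against primary tumor was kept under all alternatives run, with log2 values of −2.75 to −2.19 and −2.43 to −1.61. Of the other AP-1 genes, *Fosb* lay in the same direction between primary tumor and lung without passing (log2 difference −1.35, SE 0.54, adjusted p = 0.0811). *Junb* had 65.0, 120.1, 267 and 365 CPM in lung and 148, 191, 247 and 183 CPM in primary tumor, with a log2 difference of 0.15 (SE 0.37), and *Fos* differed by −0.21 (SE 0.51). These differences between genes were not tested.

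The endothelial cells of the tissues fell into different clusters. In primary tumor 98.4% belonged to the cluster led by *Slc6a2*, *Selp* and *Vwf*, genes of venous and larger vessels, against 16.6% in lung and 41.4% in lung metastasis. The others were in clusters led by *Npr3*, *Glp1r* and *Sema3g* (62.4% of the lung cells) and by *Car4*, *Ednrb* and *Prx* (21.0%), the latter known from gas-exchange capillaries. Inside the *Selp* and *Vwf* cluster *Jun* had 704 to 1094 CPM in lung (808 ± 191, SD, n = 4), 359 to 864 CPM in lung metastasis (582 ± 258, n = 3) and 115 to 210.0 CPM in primary tumor (168 ± 39.3, n = 4). The groups did not overlap between primary tumor and the other tissues there either. Inside lung, the cluster of *Car4* and *Ednrb* had 1238 to 1736 CPM.

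Other measures moved with the tissue in these cells. The share of mitochondrial UMIs in endothelial cells was 1.94 to 4.96% in lung and 4.73 to 7.59% in primary tumor. Of the 9 MM markers, Cd63 is also on the list of C1q macrophage markers. The summed level of the other 8 was 1.58 to 6.69 CPM in lung, where 2 to 6 of them were above 0, 457 to 7746 CPM in lung metastasis and 218 to 1681 CPM in primary tumor, where 7 or 8 were. That of the 10 monocyte markers was 1007 to 1403 CPM in lung and 189 to 503 CPM in primary tumor, where 3 to 7 were above 0. The part of these in the *Jun* difference was not tested.

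*Hspa1b* in endothelial cells had 43.2, 65.3, 69.1 and 58.6 CPM in lung, 52.7, 39.6, 5.25 and 13.5 CPM in lung metastasis and 67.9, 8.90, 5.68 and 12.1 CPM in primary tumor, in the same order of libraries. The run 1 library of primary tumor, with 51 endothelial cells, was as high as lung, and the other 3 were below all lung values. The log2 difference between primary tumor and lung was −1.85 (SE 0.58, adjusted p = 0.0303, edgeR). Inside the *Selp* and *Vwf* cluster it had 17.01, 84.0, 48.4 and 36.9 CPM in lung and 41.4, 8.90, 5.68 and 12.1 CPM in primary tumor, which overlapped. This contrast was lost without lung replicate 5 (adjusted p = 0.0924), lung replicate 6 (0.0589) or any of primary tumor replicates 4, 5 and 6 (0.0915 to 0.128), with tissue as the only term (0.0589) and without the 2 libraries of lowest depth (0.130). The test over the 3 tissues was lost in the same cases and without lung replicate 4 or lung metastasis replicate 6 (adjusted p = 0.0706 to 0.158 over all of these). *Hspa1a* fell between the same tissues by 1.05 on the log2 scale (SE 0.33, adjusted p = 0.0302, edgeR), with 26.8 to 45.0 CPM in lung and 7.09 to 36.0 CPM in primary tumor, but its test over all 3 tissues missed the threshold (adjusted p = 0.0517). *Dnajb1*, with 20.1 to 42.3 CPM in lung and 25.0 to 29.8 CPM in primary tumor, differed by −0.01 (SE 0.29).

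In C1q macrophages *Atf3* was the 1 of the 10 genes called by tissue (adjusted p = 0.0234, edgeR), where 6.44% of all genes were called. It had 65.1, 157, 59.7 and 91.1 CPM in the lung libraries (mean 93.2 ± 44.6, SD, n = 4). In lung metastasis it had 137, 793, 159.6 and 281 CPM (343 ± 307, n = 4), and the primary tumor libraries of run 1 and replicate 4 had 264 and 259.7 CPM. Lung replicate 4 was higher than the lung metastasis library of run 1, so the groups overlapped. The log2 difference between lung metastasis and lung was 1.67 (SE 0.36, adjusted p = 0.0103, edgeR), where 3.76% of all genes were called higher, and that between primary tumor and lung was 1.42 (SE 0.45, adjusted p = 0.0868).

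This call rested on few cells, 48 to 276 per library in lung and 26 to 138 in lung metastasis. The test over tissues lost it at 50 cells per library (adjusted p = 0.116), with tissue as the only term (0.0563), with the replicate block (0.110), without the 2 libraries of lowest depth (0.0521), and without any of the 4 lung libraries (0.0521 to 0.111) or lung metastasis replicate 6 (0.0953). With cell types from marker genes without clusters the difference between lung metastasis and lung was −0.12 (adjusted p = 0.878). The MM marker sum of these macrophages without Cd63 was 0 to 12.2 CPM in lung, with 0 to 4 of the 8 markers above 0, and 217 to 3334 CPM in lung metastasis, with 5 to 8, and its part was not tested. Cd63 itself had 387 to 621 CPM in lung and 326 to 1176 CPM in lung metastasis. *Egr1* had 102, 163, 617 and 953 CPM in the lung libraries of run 1 and replicates 4, 5 and 6, and 59.1 to 192 CPM in lung metastasis, and just missed the threshold in that contrast (log2 difference −1.77, SE 0.51, adjusted p = 0.0501).

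In monocytes none of the 10 genes was called by tissue by edgeR, where 5.54% of all genes were, and *Atf3* alone had an unadjusted p below 0.05 (adjusted p = 0.0511), against 19.1% of all genes. With the replicate block *Hspa1b* was called (adjusted p = 0.0220), where 2.92% of all genes were. DESeq2 called 1, where it called 7.56% of all genes. The 2 contrasts of primary tumor against the other tissues passed for *Atf3*, at log2 differences of 0.95 against lung (SE 0.27, adjusted p = 0.0459, 3.21% of all genes higher) and 1.05 against lung metastasis (SE 0.28, adjusted p = 0.0459, 1.81% higher). They rest on primary tumor libraries with 259.6 and 629 CPM, against 172 to 313 CPM in lung. The clusters differed here as well: the *Ly6c2* cluster held 76.6% of the primary tumor monocytes, 25.5% of those of lung and 13.7% of those of lung metastasis.

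In fibroblasts edgeR called none of the 10 genes by tissue, where 8.41% of all genes were called, and 2 had an unadjusted p below 0.05, against 24.0% of all genes, *Fos* (adjusted p = 0.172) and *Hspa1b* (adjusted p = 0.111). *Hspa1b* was called by DESeq2 (adjusted p = 0.0351, where it called 13.6% of all genes) and by edgeR with the replicate block (0.0209, where 9.58% of all genes were called). *Fos* had 223, 549 and 813 CPM in lung replicates 4, 5 and 6, 138 and 273 CPM in lung metastasis replicates 5 and 6, and 205, 184 and 105 CPM in primary tumor replicates 4, 5 and 6. All 3 primary tumor values were below all 3 lung values. *Hspa1b* had 27.1, 74.1 and 175 CPM in lung, 11.7 and 35.0 CPM in lung metastasis and 44.3, 48.6 and 251 CPM in primary tumor. Between lung metastasis and lung all 10 fitted values were below 0 (median −0.69, against −0.02 for all genes, of which 48.7% were above 0), and between primary tumor and lung 8 of 10 were (median −0.61, against −0.01 for all genes). Both contrasts share the lung libraries. Between lung metastasis and lung, 8 of 10 were below 0 in endothelial cells (median −0.55) and 9 of 10 in monocytes (median −0.25), and 7 of 10 were above 0 in C1q macrophages (median 0.17). Of all genes 48.2%, 49.9% and 50.2% were above 0 in these cell types.

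Fibroblasts too were composed differently: 98.1% of the lung cells were in the cluster led by *Inmt* and *Clec3b*, 66.9% of the primary tumor cells in that led by *Ccl11* and *Lum* and 33.1% in that led by *Meg3*, *Rgs5* and *Tnc*, and 76.6% of the lung metastasis cells in the last of these. Their MM marker sums without Cd63 were 0 to 7.86 CPM in lung, with 0 to 6 of the 8 above 0, 983 to 4315 CPM in lung metastasis and 495 to 4840 CPM in primary tumor, with 7 or 8, and the part of these was not tested. Cd63 had 234 to 648 CPM in lung and 1064 to 1272 CPM in primary tumor. Within primary tumor replicate 6, a single library, the 469 cells of the *Meg3* and *Tnc* cluster had 257 CPM of *Hspa1a* and 376 CPM of *Hspa1b*, and its 1586 cells of the *Ccl11* and *Lum* cluster 36.4 and 61.2 CPM, while *Dnajb1* had 39.4 and 32.9 CPM. The same *Meg3* and *Tnc* cluster had 31.6 and 63.9 CPM of *Hspa1a*, 51.7 and 44.4 CPM of *Hspa1b* and 18.7 and 23.1 CPM of *Dnajb1* in primary tumor replicates 5 and 4.

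Sorted MM cells had the lowest median of the 13 cell types for each of the 10 genes but *Atf3*. Between primary tumor and lung metastasis (2 libraries each) edgeR and DESeq2 called none of the 10, where edgeR called 0.007% of 14280 genes, and 5 had an unadjusted p below 0.05, against 3.14% of all genes. *Fos* had 51.6 and 38.7 CPM in the lung metastasis libraries of replicate 4 and of run 3, and 91.6 and 75.9 CPM in the primary tumor libraries of runs 2 and 3. Both primary tumor values were higher, with a log2 difference of 0.96 (SE 0.36, adjusted p = 1.00). Within run 2 and within run 3 *Fos*, *Fosb*, *Jun*, *Junb* and *Ier2* were each higher in primary tumor, and the other members were not. The share of all genes higher in both runs is not given here. The run 3 libraries came from the same mouse. With run as a block, 2 genes were called, *Hspa1a* (−1.79, SE 0.38, adjusted p = 0.000734) and *Hspa1b* (−2.16, SE 0.41, adjusted p = 4.61e-05), where 0.805% of all genes were, and *Fos* (0.93, adjusted p = 0.271), *Fosb* (1.196, adjusted p = 0.0892) and *Junb* (0.77, adjusted p = 0.582) were not. The chaperone genes were set apart by a single library: *Hspa1a* had 99.4 CPM in lung metastasis replicate 4 and 8.66, 7.30 and 9.03 CPM in the other 3, and *Hspa1b* 74.5 CPM against 4.34, 3.42 and 4.36 CPM.

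Their log2 differences of −2.63 and −3.21 without the block (adjusted p = 0.768 and 0.594) describe that library, which held 292 MM cells. Without the block both genes were called on leaving out any of the other 3 libraries, where 0.254 to 0.377% of all genes were, and neither on leaving out lung metastasis replicate 4. Each of these fits leaves 1 tissue with a single library, whose spread is assumed to be that of the other tissue, and without the lung metastasis library of run 3 that single library is replicate 4. The blocked fit without it was not run. *Atf3* was highest there as well, at 66.03 CPM against 15.2 to 21.8 CPM, while *Dnajb1* was not (22.9 CPM against 23.3 to 30.1 CPM). The 7 neutrophil markers summed to 19.6 CPM in its MM cells against 0.77 to 1.79 CPM in the others, and the 7 alveolar macrophage markers to 28.8 CPM against 0.12 to 0.80 CPM, and the part of these was not tested.

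Genes of the same pathways were read from lists. Of the other immediate early genes, 0 of 29 tested were called by run in fibroblasts, 0 of 27 in endothelial cells, 2 of 25 in monocytes and 0 of 24 in C1q macrophages, and by tissue 5, 14, 3 and 2. Of all genes 0%, 0.395%, 1.44% and 0.119% were called by run and 8.41%, 23.5%, 5.54% and 6.44% by tissue. In endothelial cells 7 were higher and 8 lower in primary tumor than in lung, among them *Fosl2*, another AP-1 partner (log2 difference 3.29), and *Gadd45b*, a stress-response gene (−2.12). *Ier3*, an early survival gene, was lower in primary tumor in endothelial cells (−0.78 against lung) and higher in fibroblasts (2.62), monocytes (3.29) and C1q macrophages (2.65). In fibroblasts the phosphatase gene *Dusp1* (−2.84) and the antiproliferative gene *Btg2* (−2.79) were lower in primary tumor than in lung. By run, *Gadd45b* and *Dusp2* were called in monocytes (adjusted p = 0.00496 and 0.00695).

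Of the other heat shock genes, 0 of 21, 0 of 21, 3 of 20 and 0 of 16 were called by run in the same order of cell types, and 0, 2, 3 and 0 by tissue. The monocyte genes called by run were the cochaperones *Stip1*, *Cacybp* and *Hsph1*, with fitted values between runs 3 and 2 of −0.97, −1.01 and −1.33. The small heat shock genes *Cryab* (3.72) and *Hspb1* (3.23) were higher in monocytes of lung metastasis than of lung, and *Hsph1* (2.03) and *Hspe1* (1.197) in endothelial cells of primary tumor. Integrated stress and unfolded protein genes were called by run for *Sdf2l1* in monocytes, 1 of 9, and by tissue for 3 of 11 in endothelial cells, with *Atf4* at −1.11, *Herpud1* at −0.997 and *Dnajb9* at −1.21 between primary tumor and lung, and for 1 of 9 in C1q macrophages (*Herpud1*, −1.49). Of the 2 cold shock genes, *Cirbp* was lower in fibroblasts of primary tumor than of lung (−1.66), the only call of that list in the tests over runs or tissues. In endothelial cells 1 of the 2 was higher in primary tumor than in lung in that contrast.

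Within unchallenged lung, the run 1 library was the lowest in 51 of 60 values of a gene in a cell type, where 36.4% of all genes were lowest there. In ciliated cells 3 libraries could be compared and in the other 5 cell types 4. It was the lowest for 10 of 10 genes in alveolar macrophages (39.7% of all genes) and monocytes (38.5%), for 9 of 10 in neutrophils (36.2%) and C1q macrophages (27.0%), for 7 of 10 in ciliated cells (47.2%) and for 6 of 10 in endothelial cells (29.7%). In neutrophils of lung, *Fos* had 2416 CPM in run 1 against 7714, 5634 and 4075 CPM in replicates 4, 5 and 6, and *Fosb* 298 CPM against 1538, 1458 and 1029 CPM. In lung metastasis 26 of 60 values were lowest in run 1, where 30.3% of all genes were, from 0 of 10 in endothelial cells (25.4%) to 9 of 10 in NK cells (49.1%). In primary tumor 27 of 40 were, where 44.3% of all genes were, with 10 of 10 in monocytes (43.6%), 8 of 10 in neutrophils (56.7%), 7 of 10 in C1q macrophages (49.7%) and 2 of 10 in endothelial cells (27.3%). These counts share libraries and are no test.

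Lung replicate 6 differed in the spread between its cell types. *Fos* lay between 616 and 940.0 CPM in its AT-2 cells (819), ciliated cells (696), club cells (637), fibroblasts (813), alveolar macrophages (940.0) and B cells (616), and the highest level of a cell type was 20.3 times the lowest over 12 cell types, against 36.4 to 172 times over 6 to 12 cell types in the other lung libraries. The summed level of the 7 neutrophil markers in those 6 cell types was 1884 to 7857 CPM, against 173 to 9670 CPM in the same 6 cell types of lung replicate 5. Lung replicate 4 had enough cells of 3 of them, with 3.01 CPM in fibroblasts, 3.57 CPM in B cells and 1804 CPM in alveolar macrophages. How much of the *Fos* level came from RNA of neutrophils was not tested. Of the 4 lung libraries, replicate 6 had the lowest median depth.

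**Figure D5:**
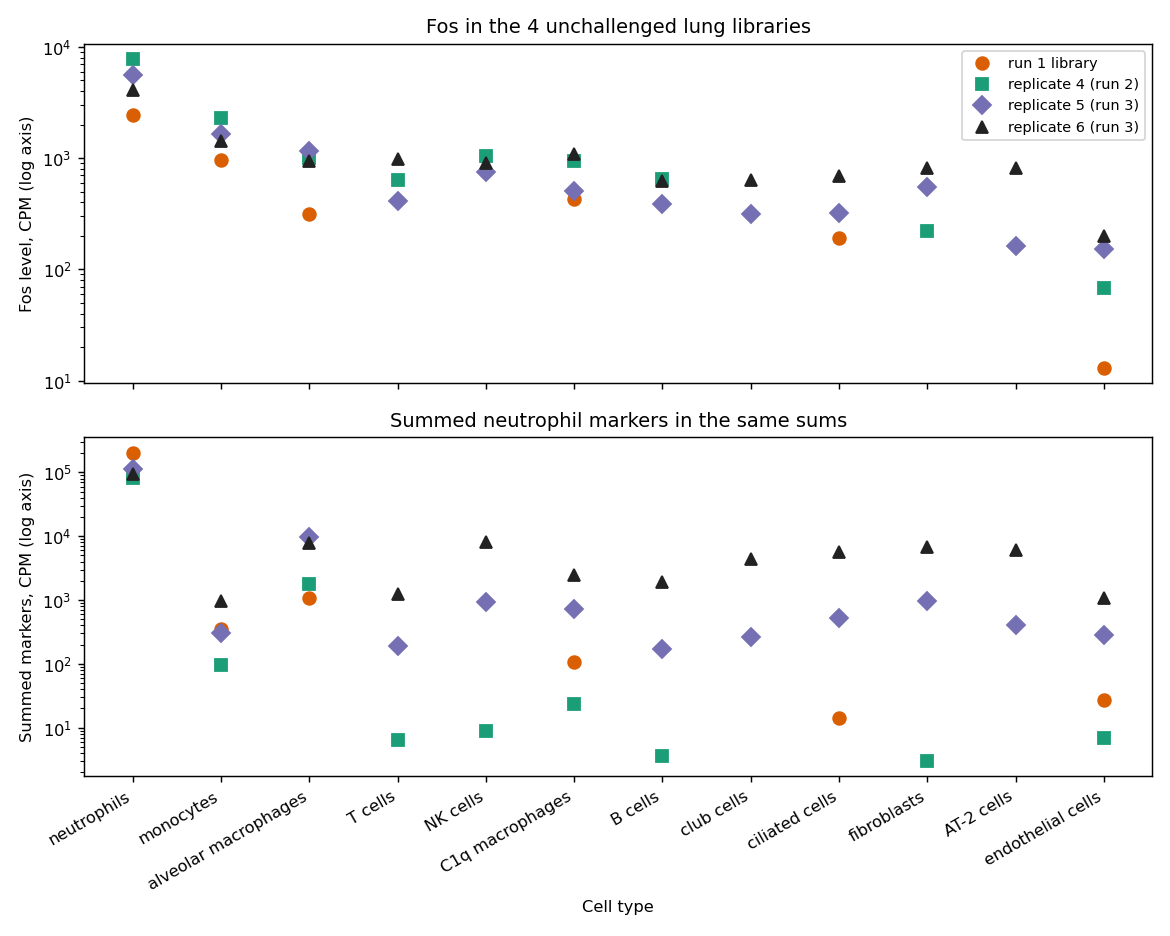
*Fos* level and summed level of the 7 neutrophil markers, both in CPM on log axes, by cell type in the 4 unchallenged lung libraries. In lung replicate 6 the *Fos* levels of the epithelial cells, fibroblasts, alveolar macrophages and B cells lay between 616 and 940.0 CPM, and their neutrophil marker sums between 1884 and 7857 CPM.

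Across the 80 sums, the genes whose levels followed *Fos* most closely among 7281 genes were *Ttc7* (Spearman's rho 0.90), *Zfp36* (0.89), *Dusp1* (0.88), *Relt* (0.88) and *Myo1f* (0.87). Of the 10 genes, *Junb* (0.86), *Ier2* (0.84) and *Fosb* (0.80) were nearest to *Fos*, and *Hspa1b* (0.50) and *Hspa1a* (0.49) farthest. *Hspa1a* was nearest to *Hspa1b* (0.76), and outside the 10 genes to *Ms4a4c* (0.71), *Ms4a6c* (0.71), *Ptpro* (0.71), *Ms4a6b* (0.71) and *Tank* (0.71), while its value with *Egr1* was 0.15. These correlations are over sums that share libraries and cell types and are given without a test.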

How the data were processed

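Droplet-based 3′ single-cell RNA sequencing covered 16 libraries of mouse cells. The deposited counts are whole UMI counts per gene and cell, made by the authors with Cell Ranger 6.1.1 on GRCm38, with Seurat 3.2.2 named for the later steps. The percent of mitochondrial UMIs of each cell was used as deposited by the authors. They had removed cells by the share of mitochondrial and ribosomal reads and by detected features. No removal of doublets is stated and none was run here. Libraries deposited under several names were counted once, and those whose replicate number differed from the title are named by run.

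The members and the gene lists were chosen with earlier results of these data known. The genes named with values are the 10 members in every comparison, at most 3 genes of each related list with the smallest p, the 5 genes nearest to *Fos* and to *Hspa1a*, and genes leading a cluster. Cells were clustered in Seurat 5.3.0 (2000 variable genes without members and related lists, 17 components, 20 nearest neighbors, resolution 0.5) and named from at least 3 raised markers. Counts were summed per library and cell type with at least 20 cells and tested by edgeR 4.0.16 (quasi-likelihood F test, tissue and run as terms, filterByExpr, TMM, Benjamini-Hochberg over all genes, threshold 0.05). DESeq2 1.42.0 was the alternative. Variance shares and within-library ratios used log2(CPM + 1). Replicates are separate libraries, and p-values measure the spread between them. Scripts were tested on simulated data.

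Library depth limits precision: sums of few cells carry few UMIs of a gene, and bounds for 0 use 3 counts and cover counting error only. Same-numbered libraries of different tissues correlated at −0.12 to 0.20 in their deviations, so the replicate number was used as a block in an alternative. Alternatives were another normalization, filters, cell minimums, clusterings, pseudocounts, leaving out libraries and, chosen after seeing the data, leaving out the 2 libraries of lowest depth, the *Selp* and *Vwf* cluster alone and an approximate neighbor search. Promoters were taken from RefSeq on GRCm38 for 8 of the 10 genes, and gene positions from the GENCODE annotation.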

Additional observations from a re-analysis of the deposited data

Results flagged for a closer look

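In groups of 4 libraries of the same tissue and cell type, 9 of 90 values of a gene (10%) held a library far from the others by Dixon's criterion. Of these, 5 were the C1q macrophages of lung metastasis replicate 4, a sum of 26 cells: *Fos* had 1553 CPM there, against 259 to 473 CPM in the other 3 libraries. *Fosb* had 735 CPM against 166 to 261 CPM, and *Jun* had 2079 CPM against 603 to 845 CPM. *Ier2* had 326 CPM against 106 to 144 CPM, and *Dnajb1* had 134 CPM against 35.4 to 47.3 CPM. These 5 values share the same cells. The share over all genes was not computed, so the 10% has no background to be read against.

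In monocytes of lung metastasis, *Fosb* was at 335 CPM in the run 1 library and at 719 to 780.5 CPM in the others. In the run 1 lung library, *Ier2* was low in alveolar macrophages, with 82.0 CPM against 316 to 325 CPM, and in monocytes, with 438 CPM against 515 to 518 CPM. *Hspa1b* in endothelial cells of primary tumor was high in the run 1 library, with 67.9 CPM from 51 cells against 5.68 to 12.1 CPM.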

How the results depend on the processing

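The counts of members called moved as follows, with the share of all genes called under the same setting in parentheses, and the causes were not tested beyond what each setting changes. By run, fibroblasts (0) gave 1 without the low-count filter (0.979%). Endothelial cells (0) gave 3 without the filter (3.52%) and 0 to 1 when a library was left out (1 without lung metastasis of run 1, 0.385%). Monocytes (2) gave 4 with DESeq2 (2.63%), 7 without the filter (3.02%), 4 at 50 cells (7.14%), 5 with the lists among the clustering genes (1.76%), 0 with types from markers (0.611%), 1 with run as the only term (0.455%) and 1 without the 2 libraries of lowest depth (0.637%). They gave 0 to 3 when a library was left out (0.637 to 2.00%): 0 without any of the run 1 libraries or primary tumor replicate 4, and 1 without lung replicates 5 or 6 or lung metastasis replicates 4 or 6. C1q macrophages (0) gave 1 without the filter (0.554%).

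By tissue, fibroblasts (0) gave 1 with DESeq2 (13.6%), 3 without the filter (14.1%), 1 with the replicate block (9.58%) and 0 to 1 when a library was left out (1 without lung replicate 6, 12.2%). Endothelial cells (2) gave 6 without the filter (18.3%), 1 with tissue as the only term (23.4%), 6 with the replicate block (23.0%), 1 without the 2 libraries of lowest depth (14.0%) and 5 in the *Selp* and *Vwf* cluster alone (18.2%). They gave 1 to 6 when a library was left out (16.4 to 30.5%): 6 without lung of run 1 (24.5%), and 1 without any of lung or primary tumor replicates 4, 5 and 6 or lung metastasis replicate 6. Monocytes (0) gave 1 with DESeq2 (7.56%), 3 without the filter (4.55%), 1 at 50 cells (5.62%), 1 with the replicate block (2.92%) and 0 to 1 when a library was left out (1 without lung metastasis replicate 5, 5.56%). C1q macrophages (1) gave 2 without the filter (4.66%), 0 at 50 cells (3.12%), 0 with types from markers (0.975%), 0 with tissue as the only term (7.95%), 0 with the replicate block (3.08%), 0 without the 2 libraries of lowest depth (4.65%), 2 with an approximate neighbor search (7.29%) and 0 to 2 when a library was left out (2.89 to 7.11%). In MM cells (0) the count was 2 without the filter (0.450%), 2 with run as the replicate block (0.805%) and 0 to 2 when a library was left out (0.118 to 0.377%).

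Among single genes, *Atf3* in C1q macrophages turned from 1.67 to −0.12 between lung metastasis and lung with types from markers. Same-numbered libraries did not all correlate above 0.1, and only lung metastasis and primary tumor shared mice, so a call lost under the block is not read as a weaker effect. Over all genes, DESeq2 called 18, 149, 218 and 20 genes by run in fibroblasts, endothelial cells, monocytes and C1q macrophages, against 0, 42, 119 and 8 with edgeR, 1511 against 936 by tissue in fibroblasts and 25 against 1 in MM cells. The median variance shares of the 10 genes were 55.3 to 66.9% for cell type, 1.23 to 1.90% for tissue and 3.72 to 6.03% for run over the settings run. Cell membership depended on the method: types from markers kept 33.9% of the alveolar macrophages and 45.0% of the endothelial cells, and the approximate search kept 57.4% of the NK cells. Sums of few cells and the shallow lung replicate 6 limit every value that rests on them.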
